A study of Drosophila melanogaster with 3 samples.

Results

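The regions described here are the Doublesex (DSX) peaks that lay in the 3 Mb next to the centromere on 4 chromosome arms of Drosophila melanogaster S2 cells. A peak was included when its centre fell on 2L from 20000000 bp to the arm's end, on 3L from 21500000 bp to the end, on 3R up to 3000000 bp, or on X from 19400000 bp to the end, in coordinates of the dm3 build. These windows held 466 of the 6520 peaks listed for the female isoform DSXF and 352 of the 5370 listed for the male isoform DSXM. The rule used position alone, and the other peaks of the same 4 arms (4739 for DSXF and 3942 for DSXM) served for comparison.

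The study mapped chromatin occupancy in S2 cells, a line derived from Drosophila embryos, by chromatin immunoprecipitation and sequencing. Cells carried a plasmid for V5-tagged DSXF or V5-tagged DSXM, introduced with the selection plasmid pCoBlast, and chromatin was precipitated with an anti-V5 antibody. Each immunoprecipitate combined 3 biological replicates, sequenced in 4 runs for DSXF and 3 for DSXM, and input DNA came from 2 replicates of cells without transfection. Reads were pooled before alignment, so each isoform had 1 list of peak positions, without heights, depth or replicate error. The tagged protein was made from a plasmid, and peaks of endogenous DSX were not analysed here. With 1 pooled list per isoform, no test between isoforms was possible. Windows were set against the rest of their arms by intervals and ranges, without a test. The 95% intervals given here cover counting error over peaks. Counts in 1 Mb bins outside the windows had a variance 5.53 times their mean for DSXF and 6.01 times for DSXM, so these intervals are too narrow as a measure of variation along a chromosome. For that reason each window was also set beside the other complete 3 Mb stretches of its own arm, counted from the centromeric end.

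DSX is the transcription factor at the end of the fly's somatic sex determination pathway. Its isoforms arise by sex-specific splicing, share the zinc-containing DM domain that contacts DNA, and differ in their C-terminal ends. Towards the centromere the assembled arms pass from gene-rich euchromatin into pericentric heterochromatin, which is rich in repeats, poor in genes and marked by methylation of histone H3 at lysine 9 and by heterochromatin protein HP1. The transition lies at a different distance from the assembled end on each arm.

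The windows fell into a pair of well-filled arms and a pair of sparse ones. On 2L the window held 159 DSXF and 124 DSXM peaks, and on 3R it held 183 and 134. On 3L it held 63 and 47 peaks, and on X 61 and 47. Together 2L and 3R thus supplied most members of either list.

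**Figure D1:**
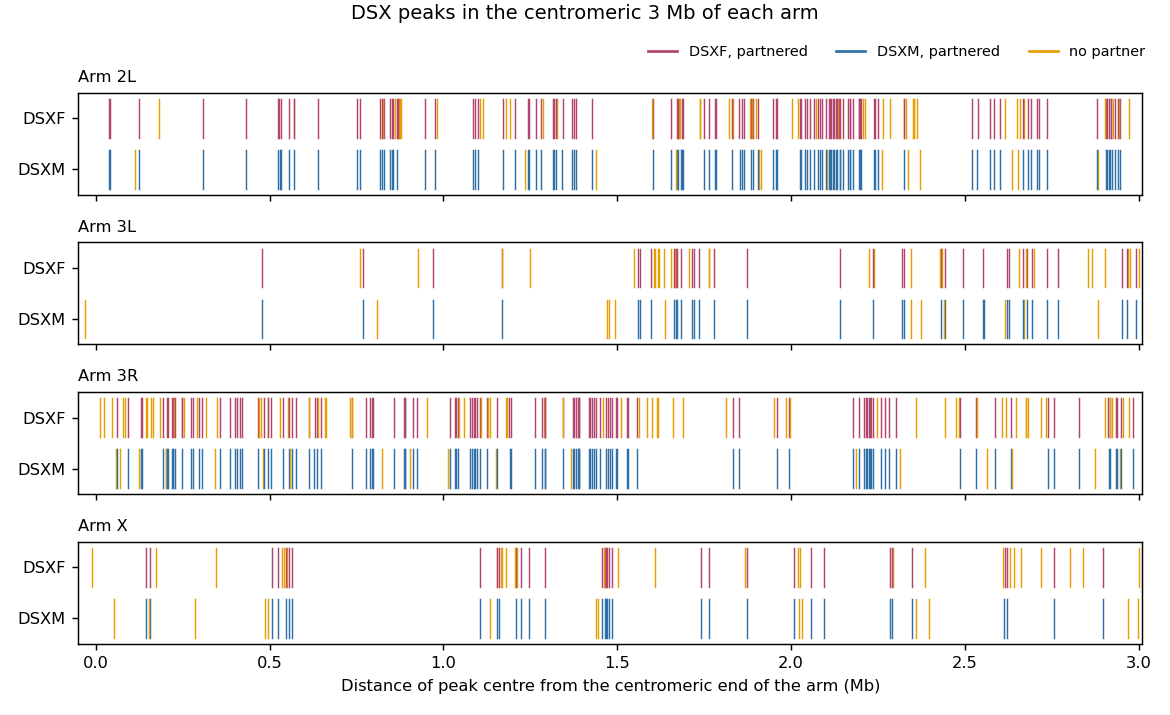
Each vertical line is the centre of a DSXF or DSXM peak, plotted by its distance in Mb from the centromeric end of the arm, with peaks lacking an overlapping peak of the other isoform in orange. Peaks on 2L and 3R reached close to the nominal end, 3 Mb from the window's boundary, with gaps between groups. The last DSXM peak on 3L and the last DSXF peak on X lay past that end. Peaks near it were fewer on these arms: 3L held 5 peaks of each list in its innermost 1 Mb, and X showed wide gaps between small groups.

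The windows made up 12.3% of the length of the 4 arms but held 8.95% of their DSXF peaks and 8.20% of their DSXM peaks. The pooled density was 38.8 DSXF peaks per Mb in the windows and 55.2 in the rest, a ratio of 0.703 (95% exact interval 0.638 to 0.773). For DSXM it was 29.3 and 45.9 peaks per Mb, a ratio of 0.638 (0.571 to 0.712). This shortfall was carried by 3L and X. On 3L the window had 21.0 DSXF peaks per Mb against 62.9 in the rest of the arm (ratio 0.334, 0.255 to 0.430). DSXM had 15.7 against 53.5 there (0.293, 0.214 to 0.392). On X the ratio was 0.510 for DSXF (0.386 to 0.662) and 0.484 for DSXM (0.352 to 0.651). The other pair of arms came close to their own averages. On 2L the ratio was 0.923 for DSXF (0.777 to 1.09) and 0.901 for DSXM (0.740 to 1.09). On 3R it was 1.04 for DSXF (0.885 to 1.21) and 0.893 for DSXM (0.742 to 1.07), and each of these intervals includes 1.

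Setting each window beside other stretches of its arm gave the same division. The 63 DSXF peaks of the 3L window lay below all 7 other complete 3 Mb stretches of 3L, which held 130 to 223, and the 47 DSXM peaks lay below their 96 to 205. The X window, with 61 DSXF peaks, lay below all 6 other stretches of X (98 to 139), and its 47 DSXM peaks below theirs (70 to 124). In contrast, the 2L window had more peaks than 2 of 6 other stretches in either list. The 3R window had more DSXF peaks than 5 of 8 other stretches and more DSXM peaks than 2 of 8. Windows on 3L and X were thus outside the range of their own arms, and those on 2L and 3R were inside it.

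Of the opposite ends of the arms, that of X was thin as well. At the telomeric ends, 3 Mb of each of the 4 arms held 53.6 peaks per Mb for DSXF (643 peaks) and 43.3 per Mb for DSXM (520 peaks). On 3L the telomeric end held 195 DSXF and 177 DSXM peaks, against 63 and 47 at the centromeric end. On X the telomeric end held 93 DSXF and 60 DSXM peaks, or 31.0 and 20.0 per Mb against 39.9 and 32.4 outside the window. These counts also lay below the 6 other complete stretches of X, so low numbers on X were not confined to the centromeric end.

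**Figure D2:**
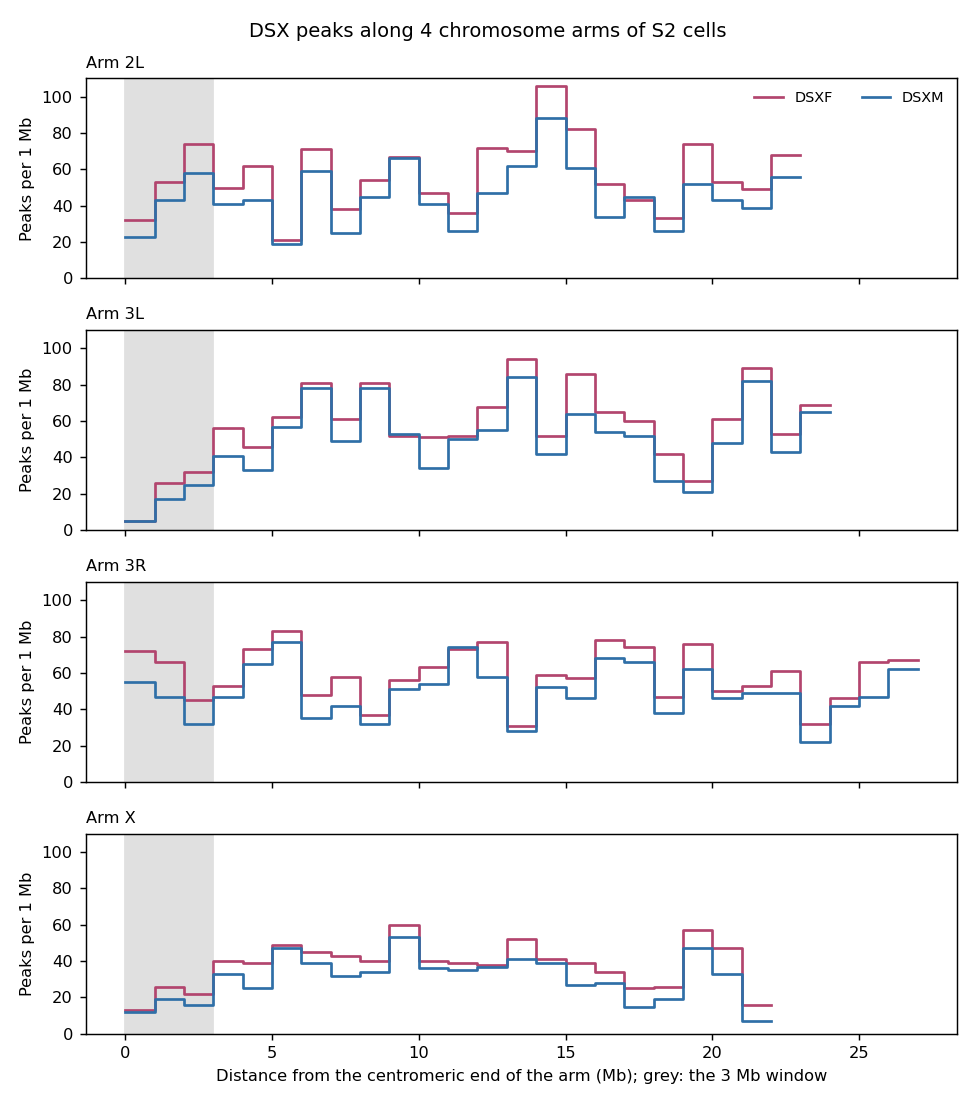
Number of DSXF and DSXM peaks in successive 1 Mb bins, plotted by distance in Mb from the centromeric end of each arm, with the 3 Mb windows in grey. Counts on 3L and X were low at the centromeric end in both lists, while 3R held 72 DSXF and 55 DSXM peaks in its innermost 1 Mb.

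Within the windows the change with distance also differed by arm. On 3L the DSXF count rose with distance from 5 peaks in the innermost 1 Mb to 26 and then 32, and the DSXM count from 5 to 17 and 25. The innermost count was below the lowest of 21 other 1 Mb bins of 3L (27 for DSXF and 21 for DSXM). On 2L the DSXF counts were 32, 53 and 74 and the DSXM counts 23, 43 and 58, all inside the range of the other 2L bins (21 to 106 and 19 to 88). On X the DSXF counts were 13, 26 and 22 and the DSXM counts 12, 19 and 16. The X bins outside the window held 16 to 60 DSXF and 7 to 53 DSXM peaks. On 3R the order ran the other way, with 72, 66 and 45 DSXF peaks and 55, 47 and 32 DSXM peaks. DSX peaks were therefore most frequent in the innermost 1 Mb on 3R and least frequent there on 2L, 3L and X.

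The innermost members showed how far towards the assembled end each list reached. On 3R the first DSXF peak lay from 12434 to 13943 bp and had no DSXM partner, the nearest DSXM peak being 43.8 kb away. The first DSXM peak on 3R lay from 57706 to 58663 bp, 1.74 kb from a DSXF peak. On 2L the last peak was common to both isoforms, from 22960476 to 22962582 bp for DSXF and from 22960521 to 22962640 bp for DSXM. The last peaks on 3L and X belonged to single isoforms. On 3L the last DSXM peak, from 24529971 to 24531293 bp, was 506.4 kb from the nearest DSXF peak. On X the last DSXF peak (22408213 to 22410377 bp) and the last DSXM peak (22346291 to 22347602 bp) were 60.6 kb apart.

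The sparse innermost 1 Mb of 3L can be given peak by peak; these peaks and the group on X below were singled out after their positions were seen. Both isoforms had a peak that started at 23529968 bp, ending at 23531023 bp for DSXF and at 23531064 bp for DSXM. A second pair ran from 23730609 to 23732226 bp for DSXF and from 23730610 to 23732134 bp for DSXM. The third pair, from 24021058 to 24023617 bp for DSXF and from 24021052 to 24023629 bp for DSXM, was the widest, at 2560 bp and 2578 bp. The remaining DSXF peaks started at 23573318 and 23740363 bp, and the remaining DSXM peaks at 23688937 and 24529971 bp. In this stretch 3 of 5 peaks in each list were thus shared, with edges within 100 bp of each other. On X a compact group followed the longest peak-free stretch: 8 DSXF peaks lay between 21834347 and 21893966 bp and 5 DSXM peaks between 21834337 and 21893999 bp. All 5 of these DSXM peaks overlapped a DSXF peak, but the group was closed where such overlap stopped. The next DSXM peaks started at 21904460 and 21912182 bp and were unpartnered. The DSXM gap before them was narrower than the one inside the group from 21854802 to 21876501 bp. Beyond the group, partners were found for 2 of 5 DSXF and for 2 of 7 DSXM peaks, a contrast that depends on this limit. In the whole innermost 1 Mb of X, overlap was found for 7 of 13 DSXF and 7 of 12 DSXM peaks.

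Peak-free stretches took up much of the sparse windows. Stretches of more than 100 kb without a peak of either list numbered 25 in the windows and covered 38.4% of their length, against 15.7% of the rest. They covered 60.2% of the X window (10 stretches) and 52.8% of the 3L window (6 stretches). In the 2L window 7 such stretches covered 30.3%, and in the 3R window 2 covered 10.1%. The longest on X ran from 21295068 to 21834336 bp (539.3 kb) and the longest on 3L from 24023630 to 24529970 bp (506.3 kb). On 2L the longest was 157.4 kb, from 21401979 to 21559360 bp, and on 3R 178.9 kb, from 1997247 to 2176109 bp. In bins of 50 kb, 81 of 240 window bins (33.8%) held no peak of either list, against 16.4% outside. The 2L window therefore combined an average density with a larger peak-free share than the rest of 2L, where the stretches covered 16.8%.

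The fullest bins of the windows lay on 2L and 3R. Bins of 50 kb with 10 or more peaks of both lists together made up 8.75% of the windows (21 of 240) and 16.5% of the rest; 10 of the 21 were on 3R, 8 on 2L, 2 on 3L and 1 on X. The fullest 50 kb bin was on 2L from 20850001 to 20900000 bp, with 12 DSXF and 12 DSXM peaks. It was followed by 2L from 20050001 to 20100000 bp with 11 and 8 peaks, and 3R from 200001 to 250000 bp with 8 and 9. Next came 3R from 2200001 to 2250000 bp with 8 and 7 peaks. The fifth place was shared by 2L from 21300001 to 21350000 bp, with 7 of each, and 3R from 2900001 to 2950000 bp, with 8 and 6. The longest run of peaks with gaps of at most 5 kb extended over 42.0 kb on 2L, from 20858063 to 20900066 bp, and joined 11 DSXF and 11 DSXM peaks in 12 merged regions. A run on 2L from 22120596 to 22154992 bp joined 10 DSXF peaks but 4 DSXM peaks. Median gaps between neighbouring peaks were wider in each window than in the rest of the arm, though hardly so for DSXF on 2L. For DSXF the median gap was 5.52 kb in the 2L window against 5.46 kb in the rest of 2L, and 7.46 kb against 5.38 kb on 3R. It was 10.6 kb against 5.45 kb on 3L and 13.4 kb against 8.67 kb on X. For DSXM it was 7.85 kb against 6.50 kb on 2L, 8.16 kb against 6.49 kb on 3R, 28.7 kb against 6.16 kb on 3L and 21.2 kb against 9.38 kb on X.

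**Figure D3:**
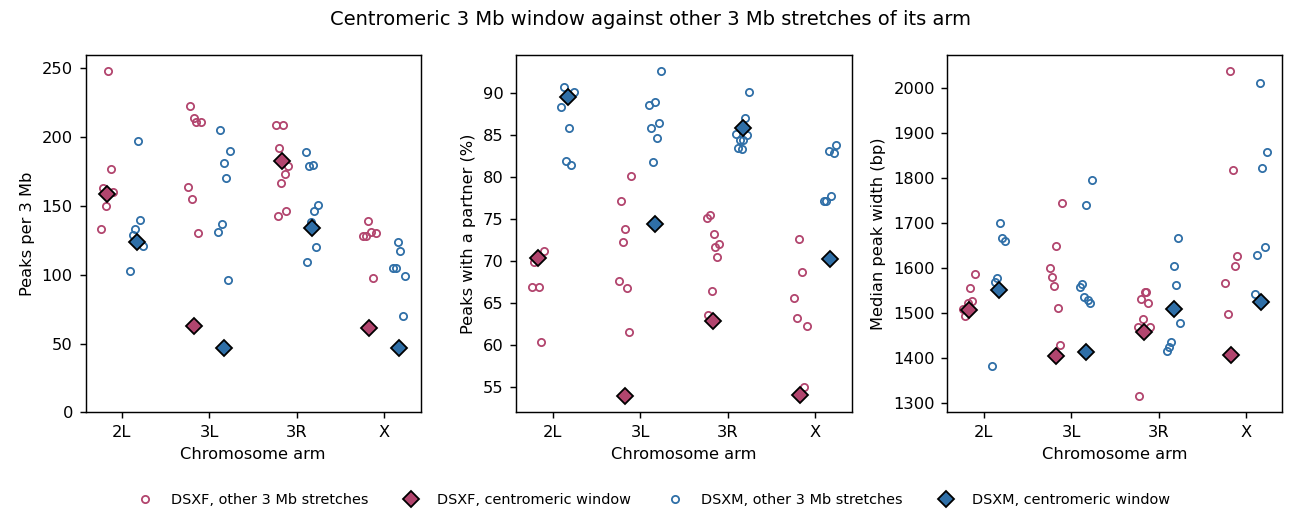
Filled diamonds give the centromeric window and open circles the other complete 3 Mb stretches of the same arm, for the number of peaks, the percentage of peaks with a partner and the median width in bp. On 3L and X the window lay below every other stretch in all 3 panels for both isoforms; on 2L it lay inside their range.

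Members were somewhat narrower than other peaks, mainly through a lack of broad ones. The median width was 1456 bp for DSXF members (95% interval 1391 to 1539 bp) and 1556 bp in the rest (1521 to 1589 bp). For DSXM it was 1525 bp (1427 to 1613 bp) and 1592 bp (1560 to 1630 bp). The intervals overlap for both isoforms. The median was lower in the window than in the rest on each of the 4 arms for both isoforms, with differences from -184 to -2 bp for DSXM and from -281.5 to -14.5 bp for DSXF. On 3R the window's DSXM median was still above those of 5 of 8 other stretches. Members 2 to 3 Mb from the end were narrowest, with medians of 1349 bp for DSXF and 1407 bp for DSXM. From 0 to 1 and 1 to 2 Mb the medians were 1501 and 1551 bp for DSXF and 1527 and 1644.5 bp for DSXM. Within 2 Mb of the end the DSXM median was 1604 bp, above the 1592 bp outside the 3 Mb windows. Lower quartiles were nearly equal, at 1142.5 bp in the windows and 1146 bp outside for DSXF and at 1190.5 and 1196 bp for DSXM. Upper quartiles were further apart, at 2125 and 2376 bp for DSXF and at 2233 and 2399 bp for DSXM.

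Broad peaks were less frequent in the windows. Of the DSXF members, 68 of 466 (14.6%, Wilson interval 11.7 to 18.1%) reached 2579 bp, the lower limit of the widest 5th of the whole list, against 21.3% in the rest. The difference was -6.70 percentage points (-9.85 to -3.02). Of the DSXM members, 56 of 352 (15.9%, 12.5 to 20.1%) reached the corresponding 2615 bp, against 21.1%, a difference of -5.17 points (-8.86 to -0.804). On 3L, 3R and X the window had a smaller share of such peaks than each of these other stretches of its arm in both lists. On 3R this held although peaks were as dense as elsewhere: 22 of 183 DSXF members (12.02%) were in the class, against 15.4 to 24.0% in the other 3R stretches. For DSXM on 3L and X the margin was small and rested on few peaks. The share was 12.77% (6 of 47) in either window, and the lowest other stretch had 12.94% on 3L and 14.3% on X. The 2L window was again inside its arm's range, at 18.9% for DSXF and 22.6% for DSXM. At 5 kb and above there were 5 DSXF members (1.07%, 0.459 to 2.49%) against 4.20% in the rest (3.66 to 4.81%). There were 3 DSXM members of that size (0.852%, 0.290 to 2.48%) against 3.96% (3.39 to 4.61%). As a result of lower density and fewer broad peaks, DSXF peaks covered 6.84% of the windows and 11.2% of the rest, and DSXM peaks 5.35% and 9.39%.

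**Figure D4:**
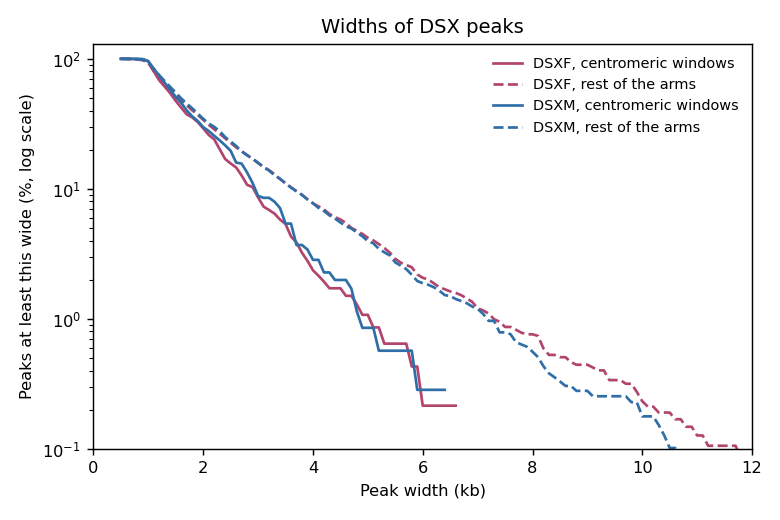
Percentage of peaks at least as wide as the width on the horizontal axis (kb), on a logarithmic vertical axis, for the centromeric windows (solid) and the rest of the same arms (dashed). The curves coincide for narrow peaks and separate for broad ones, with 1.07% of DSXF members and 4.20% of other DSXF peaks reaching 5 kb.

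The widest members were on 3R and were shared. The DSXF peak from 2230814 to 2237438 bp was 6.63 kb wide and overlapped a DSXM peak from 2231014 to 2237480 bp of 6.47 kb. On 2L the widest DSXF member ran from 22174650 to 22180613 bp (5.96 kb) and the widest DSXM member from 21621647 to 21627512 bp (5.87 kb). On X they ran from 19783654 to 19788664 bp (5.01 kb) and from 19778027 to 19782840 bp (4.81 kb). On 3L the widest was a common region of 3.89 kb for DSXF and 3.91 kb for DSXM, starting at 22814892 and 22814912 bp. Each of these 8 peaks had a partner in the other list. Outside the windows the same arms had peaks of up to 25644 bp in the DSXF list and 25199 bp in the DSXM list.

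Sharing between the isoforms was measured by overlap of at least 1 bp. A DSXM partner was found for 294 of 466 DSXF members (63.1%, Wilson interval 58.6 to 67.3%), where the background over the whole DSXF list was 68.8%. Of the DSXM members, 294 of 352 (83.5%, 79.3 to 87.0%) had a DSXF partner, where the background over the DSXM list was 85.3%. Against the rest of the 4 arms the DSXF share differed by -6.48 points (-11.1 to -2.02) and the DSXM share by -1.92 points (-6.28 to 1.77), the latter interval including 0. The difference varied by arm. On 2L the window was slightly above the rest of the arm, at 70.4% against 67.8% for DSXF (2.67 points, -5.29 to 9.77). For DSXM the 2L shares were 89.5% and 86.6% (2.91 points, -4.02 to 7.78), and both intervals include 0. On 3L the window was below the rest, 54.0% against 72.5% for DSXF (-18.5 points, -30.9 to -6.56). For DSXM the 3L shares were 74.5% and 87.4% (-12.9 points, -27.0 to -2.45). On X the shares were 54.1% against 64.3% for DSXF and 70.2% against 80.3% for DSXM, and both intervals of the difference include 0. On 3R the DSXF share was 62.8% against 71.0% (-8.20 points, -15.7 to -1.12), while the DSXM shares were 85.8% and 85.4%. The DSXF shares of the 3L, 3R and X windows were each lower than in the other 3 Mb stretches counted from the centromeric end, and so were the DSXM shares on 3L and X. For DSXF the lowest of these stretches had 61.5% on 3L, 63.6% on 3R and 55.1% on X, so the margin was small on 3R and X. For DSXM it had 81.8% on 3L and 77.1% on X. The last 3 Mb at the telomeric end of X, which straddles these stretches, had a DSXF share of 51.6%, below that of the X window.

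The share with a partner also varied with peak width. Narrow peaks had a partner less often everywhere: among DSXF members the share went from 28.1% in the narrowest of 5 width classes to 97.1% in the widest. By arm, differences in median width and in share varied in size. On 3R the DSXF median width differed by -14.5 bp beside a share difference of -8.20 points. The widest class there held 12.02% of DSXF members, against 15.4 to 24.0% in the other 3R stretches. On 2L the median differed by -25.5 bp for DSXF and -45 bp for DSXM. Both 2L shares were higher in the window, with intervals of the difference that include 0. When the rest of the arms was weighted to the members' widths, a comparison chosen after the shares were seen, its DSXF share was 67.5% in place of 69.6%, and the members lay 4.46 points below it. The weighted DSXM share was 84.3%, and the members lay 0.826 points below it. The part of width in the shares was not tested. Density was low beside low shares on 3L and X, but on 3R the DSXF density ratio was 1.04 beside a share that differed by -8.20 points; the part of density in the shares was not tested. With centres within 200 bp as the rule, the DSXF difference was -1.86 points (-6.60 to 2.88) and the DSXM difference 3.93 points (-1.36 to 8.87), and both intervals include 0. With a reciprocal overlap of 50% the DSXF difference was -5.27 points (-9.98 to -0.707) and the DSXM difference 0.951 points (-3.76 to 5.07).

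**Figure D5:**
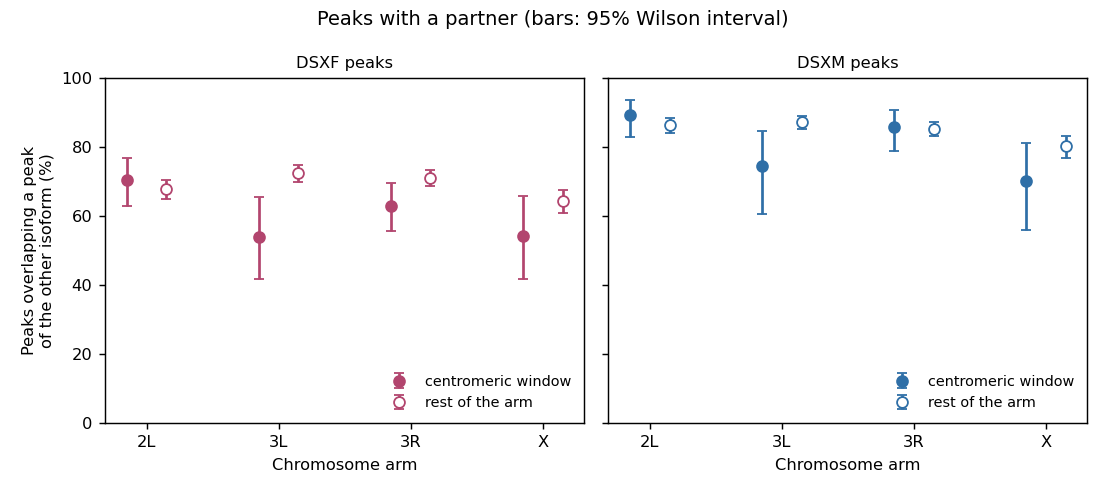
Percentage of DSXF peaks and of DSXM peaks that overlapped a peak of the other isoform, in the centromeric window (filled) and the rest of each arm (open), with 95% Wilson intervals. DSXF members on 3L and X had a partner in 54.0% and 54.1% of cases, and on 2L in 70.4%.

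Members without a partner lay farther from the other list on 3L and X than on 2L and 3R for DSXM. There were 172 such DSXF and 58 such DSXM members, and their median distance to the nearest peak of the other list was 6.47 kb and 5.60 kb, against 4.87 and 3.68 kb in the rest. More than 10 kb separated 63 of the 172 DSXF and 22 of the 58 DSXM members from the other list, which is 36.6% and 37.9% of them. In the rest the shares were 32.4% for DSXF, inside the members' interval of 29.8 to 44.0%, and 25.1% for DSXM. For DSXM the median distance was 20.1 kb on 3L (12 peaks) and 10.9 kb on X (14 peaks). It was 4.09 kb on 2L (13 peaks) and 4.11 kb on 3R (19 peaks). In the rest of the arm it was 3.16 kb on 3L, 6.27 kb on X, 4.17 kb on 2L and 2.60 kb on 3R. For DSXF members this division of the arms did not hold, with 8.23 kb on 3L, 8.02 kb on 3R, 6.40 kb on X and 4.09 kb on 2L. The widest unpartnered DSXF members were on 3R from 1131502 to 1134670 bp (3.17 kb), on 3L from 22260041 to 22263023 bp (2.98 kb) and on 2L from 20383558 to 20386046 bp (2.49 kb). The widest unpartnered DSXM members were on X from 21904460 to 21906981 bp (2.52 kb), on 3R from 1364308 to 1366828 bp (2.52 kb) and on X from 22246069 to 22248508 bp (2.44 kb). The nearest peak of the other list was 1.82 to 12.8 kb from these DSXF members and 1.95 to 10.5 kb from these DSXM members.

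Where the isoforms did share a region, their peaks coincided as closely as elsewhere. In the windows 285 DSXF peaks met a single DSXM peak that met no other. The centres of these pairs lay a median of 45.5 bp apart (40 to 57 bp), against 54.5 bp (52 to 58 bp) in the rest, and 82.8% (78.0 to 86.7%) were within 200 bp, against 80.2% (78.8 to 81.6%). On 3L the 33 pairs had a median offset of 32.5 bp, on X the 33 pairs 40.5 bp, on 3R the 112 pairs 48.5 bp and on 2L the 107 pairs 50.5 bp. The DSXF peak was the wider of the pair in 58.2% of window pairs (52.4 to 63.8%) and in 65.3% of pairs in the rest (63.6 to 66.9%). By arm the window and rest values were 53.3% and 65.9% on 2L, 59.8% and 66.7% on 3R and 57.6% and 67.1% on X, while 3L went the other way with 69.7% and 62.3%.

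Merging both lists gave 521 regions in the windows. Of these, 291 (55.9%, 51.6 to 60.1%) held both isoforms, 172 DSXF alone and 58 DSXM alone, while 61.6% (60.3 to 62.9%) of the 5248 regions in the rest held both. By arm the share with both was 64.7% in the 2L window against 60.5% in the rest of 2L, and 56.7% against 62.8% on 3R. It was 45.3% against 65.1% on 3L and 44.0% against 54.9% on X. Intervals of window and rest were apart on 3L (34.6 to 56.6% and 62.7 to 67.5%) and overlapped on the other arms. Shared regions made of 3 or more peaks were 6 of 291 in the windows (2.06%) and 175 of 3232 in the rest (5.41%). The number of DSXF peaks per DSXM peak was 1.32 in the windows (1.15 to 1.52) and 1.20 in the rest (1.15 to 1.25), with overlapping intervals. On the single arms it was 1.28 on 2L (1.01 to 1.64), 1.30 on X (0.873 to 1.94), 1.34 on 3L (0.904 to 2.00) and 1.37 on 3R (1.09 to 1.72). These intervals overlap, so the arms cannot be ranked, and those of X and 3L include 1. The thinning on 3L and X was seen in both lists, and the ratio says nothing of the isoforms' occupancy, since the depth behind the lists is unknown.

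The peaks nearest the inner limits of the windows varied widely in width. Just inside, the DSXF peak on 2L was 783 bp wide, that on 3L 1537 bp, that on 3R 3548 bp and that on X 1402 bp. Just outside, the DSXF peaks were 1088, 1650, 5540 and 1898 bp wide on the same arms. For DSXM the peaks just inside were 1340, 1962, 3899 and 2431 bp wide and those just outside 1228, 1535, 4905 and 1700 bp.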

How the data were processed

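Per the series' design text, the authors pooled the reads of all replicates of a sample before alignment and called peaks on the pool. Alignment used the dm3 build, with Bowtie 0.12.7 and Picard listed in the submitters' processing notes. Which program called the peaks, with what threshold and control, and how reads mapping to several places were treated, is not given in the sources used. The deposited lists hold sequence name, start and end in 3 columns, with no score. Each list was matched to its isoform through the sample title in its deposited name. Starts were read as counted from 0 and are printed counted from 1.

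Lengths of the dm3 arms were not used here: windows were taken as 3 Mb long, densities and distances refer to that nominal end, and the last DSXM peak on 3L (30.6 kb) and the last DSXF peak on X (9.29 kb) lay past it and were counted. The outer end of 3R was its last peak. Partners, widths, gaps and densities were computed with Python 3.11.15, NumPy 2.4.6 and SciPy 1.17.1, and the code was checked on simulated lists. Intervals (95%) are Wilson for shares, Newcombe for differences of shares, exact conditional for ratios of counts and order statistics for medians. No test was run, since each isoform had 1 pooled list. The rule for regions named by position took per arm the widest and innermost members, the longest peak-free stretch and the peaks at the boundary, and over the arms the 3 widest unpartnered members per list, the 5 fullest bins of 50 kb and the longest run. The members, windows and comparisons were chosen with earlier results of these data known. The weighting by width, the peaks of at least 5 kb, the widest class, the 3 Mb stretches and the second run on 2L were chosen after the data were seen. No dm3 sequence or annotation was used here, so no gene is named and no sequence is printed.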

Additional observations from a re-analysis of the deposited data

How the results depend on the processing

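Of 74 alternatives, 59 gave a value inside the 95% interval of the reported one. They included every alternative for the median widths, the ratio of DSXF to DSXM peak numbers and the share of merged regions with both isoforms. Counting any overlap with the window left each value unchanged. For widths and shares the interval is that of the windows alone. A value inside it does not show that a difference from the rest held. With 2 Mb windows the DSXM median width was 1604 bp, above the 1592 bp outside the 3 Mb windows. The density ratio of windows to rest stayed below 1 in every alternative run. Each run kept 3L or X, the arms that carried the shortfall, and leaving out both was not run. The size of the ratio depended on the window and the arms. For DSXF and DSXM it was 0.563 and 0.531 with 1 Mb windows and 0.797 and 0.732 with 5 Mb windows. It was 0.625 and 0.551 without 2L, 0.850 and 0.781 without 3L, 0.585 and 0.547 without 3R, and 0.754 and 0.679 without X. For DSXF it was 0.638 among partnered peaks and 0.629 among the wider 50% of the list. With centres within 200 bp the share of members with a partner was 50.6% for DSXF and 67.0% for DSXM, and with a reciprocal overlap of 50% the DSXM share was 79.3%. The cause of these shifts was not tested, beyond the stricter rules admitting fewer partners. Depth is unknown and replicates could not be left out. No paired analysis was possible because replicates were combined into a single list per isoform.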

Other observations

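Beyond the assembled arms, dm3 carries separate heterochromatic sequences for the same chromosomes, named 2LHet, 3LHet, 3RHet and XHet. They held 15 DSXF and 14 DSXM peaks, of which 11 in each list had a partner. On 3RHet there were 6 peaks of each isoform and 5 of each had a partner, on 3LHet 5 and 5 with 3 partnered in each, on 2LHet 3 and 2 with 2 partnered in each, and on XHet 1 and 1, which overlapped. Widths ran from 1036 to 2302 bp for DSXF and from 1027 to 3391 bp for DSXM. The order of these sequences relative to the windows was not analysed here, and no density was computed for them.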
